A study of Mus musculus with 8 samples.

Results

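The genes of mitosis and chromosome segregation described here are a list of 51 names, from the transcription factors that switch on the mitotic program to the proteins that condense chromosomes, build the spindle and split the cell. They were chosen by name, and 50 of them were found among the 20696 genes that the deposited tables list for at least 1 of the 2 cell populations. Bub3 was not found by symbol and is not analysed here, and the mitotic kinase gene is listed as Cdk1. The samples are 8 poly(A) RNA libraries of sorted mouse bone marrow cells. They form 4 groups of 2: LT-HSC KO and LT-HSC WT, then MPP KO and MPP WT. LT-HSC are long-term hematopoietic stem cells, the rarely dividing cells at the top of blood formation, and MPP are multipotent progenitors, their more limited offspring. Tet1, the gene knocked out, makes a dioxygenase that oxidizes methylated cytosines of DNA. Both populations were flow sorted from mice 20 weeks after they had been transplanted with Tet1 KO or WT bone marrow, so the sorted cells of all 4 groups came from transplanted mice. The sort gates, including any that separates donor from host cells, are not stated. The labels give the strain as CD57BL/6 and the age as 6 months. Each library held RNA of 10000 LT-HSC or 100000 MPP. No source used here says that the libraries of a group came from separate animals. The p-values below therefore reflect the spread between libraries, and that spread may be technical.

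A cell enters mitosis when cyclin B, bound to Cdk1, becomes active. Condensins then compact the chromosomes, kinetochores attach them to the spindle, and a checkpoint holds back the anaphase-promoting complex until all are attached. Aurora and Polo kinases time these steps, and a contractile ring, placed by the central spindle through Ect2, divides the cell. Most of these genes are transcribed late in the cell cycle: the MuvB core recruits repressors to their promoters in resting cells and B-Myb (Mybl2) and Foxm1 in cycling cells. MuvB reads a short element called the CHR, often close to CCAAT boxes bound by NF-Y. In blood formation, adult LT-HSC are known for staying mostly out of the cycle, and MPP for dividing far more often.

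Promoter windows, from 250 bases before to 50 after each start, were taken from RefSeq (GRCm38.p6) for 43 of the 51 names, some with more than 1 start. The letters TTTGAA, the core of the CHR, were searched on both strands and were present in 34 of 46 such windows, or 73.9%, against 17.9% of all 32851 windows. CCAAT, also searched on both strands, was in 36 of 46 windows, or 78.3%, against 37.4% of all windows. Both were present in 31 windows, or 67.4%, against 6.95% of all. Counted by gene, TTTGAA was present for 31 of 43 names, or 72.1%, against 20.2% of 27025 genes, so the several starts of some genes do not carry the difference. A match is a string of letters and not a bound site. The windows of 5 members that rose in LT-HSC KO, below, are shown because they carry TTTGAA, printed 5′ to 3′ in the direction of transcription, with TTTGAA and CCAAT, or their reverse complements, in capitals.
Ect2: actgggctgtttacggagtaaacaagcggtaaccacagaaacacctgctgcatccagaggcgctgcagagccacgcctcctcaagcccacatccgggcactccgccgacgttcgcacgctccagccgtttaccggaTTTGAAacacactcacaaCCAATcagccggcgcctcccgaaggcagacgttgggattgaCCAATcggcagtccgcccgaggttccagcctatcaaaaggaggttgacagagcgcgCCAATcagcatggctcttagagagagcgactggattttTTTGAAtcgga
Aurka: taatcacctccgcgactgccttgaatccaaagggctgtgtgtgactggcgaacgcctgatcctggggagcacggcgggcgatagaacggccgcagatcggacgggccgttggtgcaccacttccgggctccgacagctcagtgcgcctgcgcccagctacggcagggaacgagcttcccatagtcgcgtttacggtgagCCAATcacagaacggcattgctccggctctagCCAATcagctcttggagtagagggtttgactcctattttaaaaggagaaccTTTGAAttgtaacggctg
Ccnf: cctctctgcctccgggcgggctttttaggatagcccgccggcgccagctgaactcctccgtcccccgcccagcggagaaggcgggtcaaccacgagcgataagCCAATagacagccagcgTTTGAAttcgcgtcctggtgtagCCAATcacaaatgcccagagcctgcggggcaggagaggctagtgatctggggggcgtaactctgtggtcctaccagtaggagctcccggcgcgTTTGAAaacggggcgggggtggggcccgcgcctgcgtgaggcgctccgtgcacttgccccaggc
Ncapg: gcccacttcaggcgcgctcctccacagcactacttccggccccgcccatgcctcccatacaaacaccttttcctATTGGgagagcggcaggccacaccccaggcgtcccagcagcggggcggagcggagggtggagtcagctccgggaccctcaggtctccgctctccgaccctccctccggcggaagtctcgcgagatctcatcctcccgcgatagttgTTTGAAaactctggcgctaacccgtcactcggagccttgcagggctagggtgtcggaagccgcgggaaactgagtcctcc
Mki67: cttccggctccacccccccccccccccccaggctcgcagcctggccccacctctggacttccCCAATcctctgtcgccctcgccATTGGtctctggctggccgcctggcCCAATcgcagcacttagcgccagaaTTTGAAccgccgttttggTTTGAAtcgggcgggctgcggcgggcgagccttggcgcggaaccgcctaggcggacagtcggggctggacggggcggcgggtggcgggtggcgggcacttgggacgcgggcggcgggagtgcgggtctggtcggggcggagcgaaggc
The Ect2 window (chr3:27153829-27154128, minus strand) holds 2 TTTGAA and 3 CCAAT, with a TTTGAA 40 bases into the transcript. The Aurka window (chr2:172370521-172370820, minus strand) holds 1 TTTGAA 33 bases into the transcript and 2 CCAAT before the start. The Ccnf window (chr17:24251360-24251659, minus strand) holds 2 of each. The Ncapg window (chr5:45669675-45669974, plus strand) holds 1 of each, and its CCAAT is on the opposite strand. The Mki67 window (chr7:135716330-135716629, minus strand) holds 2 TTTGAA and 3 CCAAT. Ccnb1, which also rose, has 2 CCAAT and no TTTGAA in its window, and Ccna2 is named only. Racgap1, which fell, has 1 TTTGAA and 1 CCAAT, so the letters are present on both sides of the result. In these members no TTTGAA overlapped a CCAAT, and among all members the letters overlapped only in Cdca8.

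Total counts were 5059917 and 5356505 in LT-HSC KO, 4976459 and 5479731 in LT-HSC WT, 12400764 to 12504581 in MPP KO and 11928659 to 12030265 in MPP WT, so a given difference is read more precisely in MPP. Levels below are counts divided by the library total and scaled to CPM. Fold changes are on the log2 scale, as fitted by edgeR, each followed by its standard error (SE). A gene is said to have risen or fallen at a quasi-likelihood adjusted p, by Benjamini-Hochberg over all genes tested, under 0.05. Tet1 had 336 and 379 counts in LT-HSC KO and 332 and 428 in LT-HSC WT, and 765 and 855 counts in MPP KO and 1207 and 1323 in MPP WT. Which part of the gene was deleted is not stated, so whole-gene counts check the labels weakly, and KO means the libraries labelled KO. Of 10 stem cell and progenitor markers, 5 were higher in WT LT-HSC than in WT MPP, 3 were lower and 2 did not pass. Flt3, a gene of more mature progenitors, had 23.2 and 24.3 CPM in WT LT-HSC against 367.2 and 342.4 CPM in WT MPP. Cd34 had 73.7 and 75.4 CPM in WT LT-HSC against 308.6 and 299.1 CPM in WT MPP. Procr had 75.0 and 69.3 CPM in WT LT-HSC against 14.7 and 14.4 CPM in WT MPP. For Hlf and Ly6a the CPM of the 2 populations overlapped. Of the same 10 markers, 1 rose and 4 fell in LT-HSC KO. Transcripts of other cell types moved with genotype in LT-HSC. All 10 erythroid markers tested rose, with a summed level of 3237 to 4113 CPM in LT-HSC KO and 570.5 to 760.6 CPM in LT-HSC WT. Of 8 stromal markers 7 rose, to a sum of 491.1 to 691.5 CPM in LT-HSC KO and 37.98 to 41.43 CPM in LT-HSC WT, where Cxcl12 and Bglap were at 0. Of 8 megakaryocyte markers 6 fell, to 896.3 to 965.2 CPM in LT-HSC KO, against 1733 to 1883 CPM in LT-HSC WT. Both T and NK markers tested, Nkg7 and Klrb1c, fell, and the list summed to 9.708 to 12.06 CPM in LT-HSC KO, against 67.34 to 71.34 CPM in LT-HSC WT, where Cd3g and Cd8a were at 0. Of 9 granulocyte and monocyte markers tested 5 rose and 1 fell, with sums of 144.3 to 188.9 CPM in LT-HSC KO and 186.1 to 269.9 CPM in LT-HSC WT, where S100a8 and Ngp were at 0. Of 8 B lineage and plasma cell markers 3 rose and 2 fell, with sums of 193.7 to 214.7 CPM in LT-HSC KO and 149.5 to 211.5 CPM in LT-HSC WT. The 4 Y-linked genes fell in the KO libraries of both populations, to 12.32 to 14.43 CPM in LT-HSC KO against 143.4 to 177.2 CPM in LT-HSC WT, and to 2.879 to 5.564 CPM in MPP KO against 165.9 to 174 CPM in MPP WT, so a difference in sex and the genotype cannot be told apart. Gene models of satellite repeats took 7.682 to 9.873% of the counts in LT-HSC KO and 0.1813 to 0.2128% in LT-HSC WT. The part of these shifts in the results on mitosis genes was not tested.

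The first comparison sets the LT-HSC libraries labelled KO against those labelled WT. In LT-HSC KO against LT-HSC WT, 7 of the 50 members rose: the cytokinesis gene Ect2, the cyclin genes Ccnb1, Ccnf and Ccna2, the spindle kinase gene Aurka, the condensin subunit gene Ncapg and Mki67, which encodes the proliferation antigen Ki-67. Racgap1, a gene of the central spindle, fell. The remaining 42 did not pass, among them Foxm1, Cdk1, Plk1, all 6 checkpoint genes, all 8 kinetochore genes and all 10 genes of the kinesin and spindle group. The 7 rises were 14% of the members, where 22.5% of all 15684 genes tested rose, and the single fall was 2%, where 10.9% of all genes fell. Their median log2 fold change was 0.11, beside 0.03 over all genes, with 30 members above 0 and 20 below. In bulk RNA, more cells in mitosis and more of these transcripts per cell cannot be told apart.

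**Figure D1:**
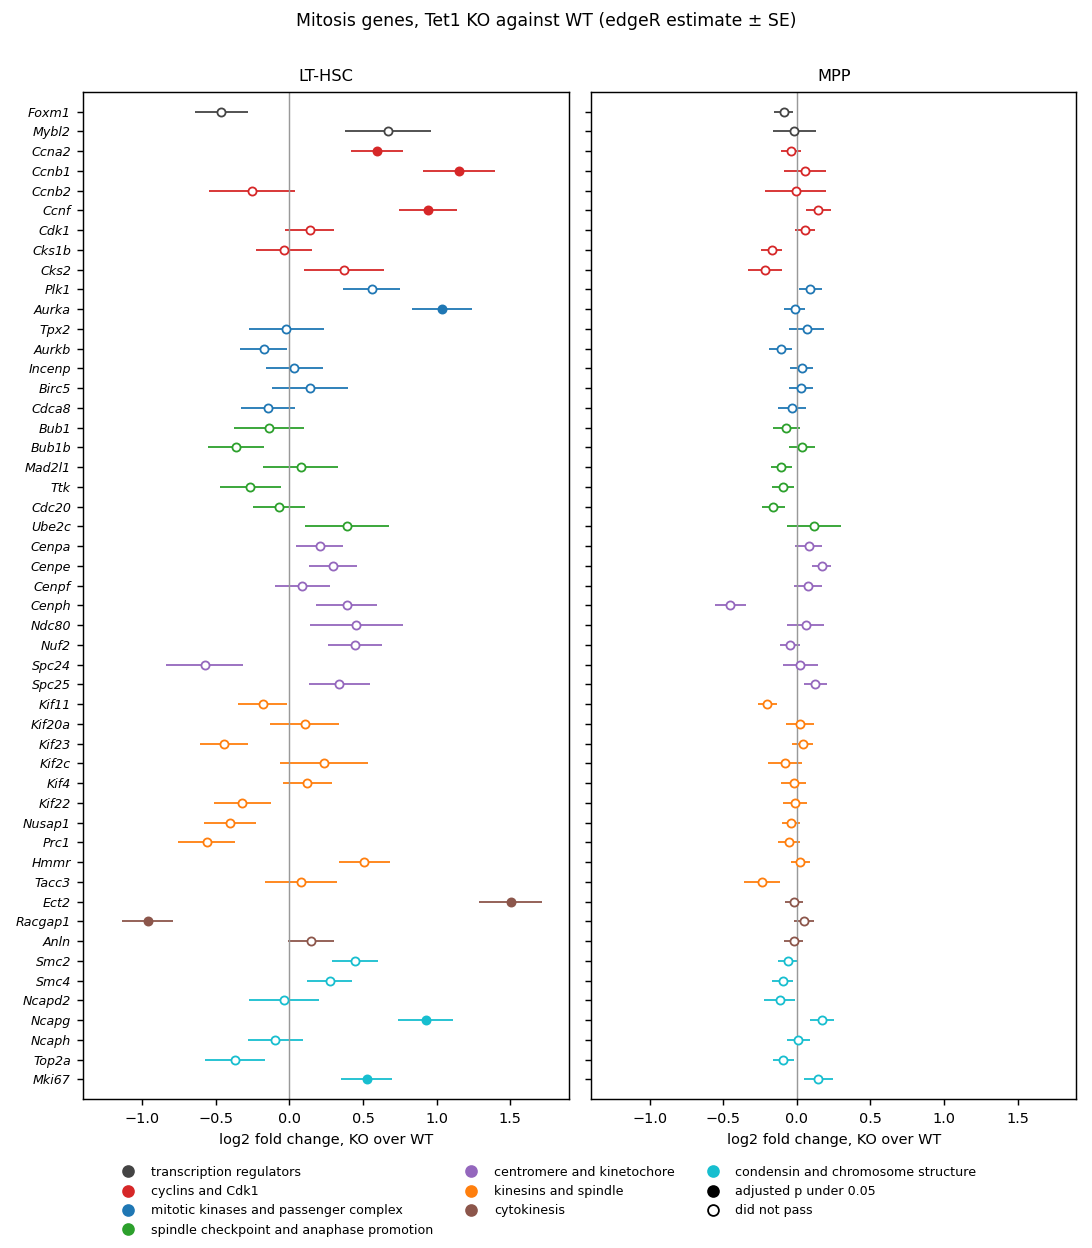
Log2 fold change, KO over WT, of each of the 50 mitosis genes in LT-HSC (left) and MPP (right), with 1 SE from edgeR as the horizontal bar, coloured by role. Filled points passed an adjusted p of 0.05, and the 8 filled points are all in the LT-HSC panel, where the members spread from -0.96 (Racgap1) to 1.50 (Ect2).

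Of the 7 genes that rose, Ect2 had the largest fold change. Its product, sitting at the central spindle, starts the assembly of the contractile ring. Ect2 (ENSMUSG00000027699, mm9 chromosome 3, 26996144 to 27052800, minus strand) had 71.7 and 57.9 CPM in LT-HSC KO, against 23.0 and 22.7 CPM in LT-HSC WT. Both KO libraries lay far above both WT libraries, which were nearly equal. The log2 fold change was 1.50 (SE 0.21, adjusted p = 0.00157 by edgeR), and it stayed past the threshold under each of the 12 alternatives tried.

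Its partner in the same step went the other way. Racgap1 (ENSMUSG00000023015, mm9 chromosome 15, 99450927 to 99482087, minus strand) encodes a subunit of centralspindlin, the complex that binds Ect2 and brings it to the spindle midzone. It had 85.1 and 79.1 CPM in LT-HSC KO, against 168.8 and 149.9 CPM in LT-HSC WT, and its log2 fold change was -0.96 (SE 0.17, adjusted p = 0.0038 by edgeR). The groups did not overlap. The call ended without LT-HSC KO replicate 2 (adjusted p = 0.0519) and with background reads subtracted (adjusted p = 0.0537). Kif23, the kinesin subunit of centralspindlin, had 76.2 and 75.7 CPM in LT-HSC KO and 106 and 99.9 CPM in LT-HSC WT, a log2 change of -0.44 (SE 0.16) that did not pass (adjusted p = 0.0695). Prc1, which bundles the midzone microtubules, had a log2 change of -0.56 (SE 0.19, adjusted p = 0.0543). Anln, the anillin gene of the contractile ring, had 0.15 (SE 0.16, adjusted p = 0.519). The midzone and ring genes therefore differed in sign, and only Ect2 and Racgap1 passed.

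Of the 7 genes of cyclins, Cdk1 and its small subunits, 3 rose, 0 fell and 4 did not pass, with a group median of 0.37. Ccnb1 (ENSMUSG00000041431, mm9 chromosome 13, 101548605 to 101556525, minus strand), the cyclin whose binding starts mitosis, had 39.0 and 51.0 CPM in LT-HSC KO, against 16.2 and 24.3 CPM in LT-HSC WT. The log2 fold change was 1.15 (SE 0.25, adjusted p = 0.00759), and the groups did not overlap although the libraries within each group differed. A processed copy of the gene, listed as Gm5593, had 160 and 141 counts in LT-HSC KO and 94 and 94 in LT-HSC WT, so reads of the gene and its copy may have been split in counting. Ccnb2, the related cyclin B gene, did not share the change. It had 154 and 98.4 CPM in LT-HSC KO and 182.9 and 116.3 CPM in LT-HSC WT, with overlapping groups and a log2 change of -0.25 (SE 0.29, adjusted p = 0.551).

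Ccnf (ENSMUSG00000072082, mm9 chromosome 17, 24359494 to 24388292, minus strand) encodes cyclin F, the substrate receptor of a ubiquitin ligase active in G2. It had 74.9 and 68.0 CPM in LT-HSC KO, against 39.6 and 34.4 CPM in LT-HSC WT, a log2 change of 0.94 (SE 0.20, adjusted p = 0.0069). Ccna2 (ENSMUSG00000027715, mm9 chromosome 3, 36463788 to 36471072, minus strand) encodes cyclin A2, which acts in S phase and at mitotic entry. It had 212.1 and 174.1 CPM in LT-HSC KO, against 126.8 and 129 CPM in LT-HSC WT, a log2 change of 0.59 (SE 0.17, adjusted p = 0.0298). Ccna2 shares 864 bases with Exosc9 on the opposite strand, and whether counting used strand is not stated. Cdk1 itself had 101.7 and 90.3 CPM in LT-HSC KO and 88.3 and 86.2 CPM in LT-HSC WT, and its log2 fold change of 0.14 (SE 0.17, adjusted p = 0.578) did not pass. The small Cdk subunits had log2 fold changes of -0.04 (Cks1b, SE 0.19) and 0.37 (Cks2, SE 0.27), and neither passed.

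Among the 7 mitotic kinase and passenger complex genes, 1 rose. Aurka (ENSMUSG00000027496, mm9 chromosome 2, 172181690 to 172196035, minus strand) encodes Aurora A, which matures centrosomes and activates Polo-like kinase. It had 65.0 and 57.3 CPM in LT-HSC KO, against 31.4 and 28.1 CPM in LT-HSC WT, a log2 change of 1.03 (SE 0.20, adjusted p = 0.00537). Tpx2, the activator that brings Aurora A to the spindle, had 239.5 and 163 CPM in LT-HSC KO and 236.9 and 170 CPM in LT-HSC WT. Its libraries differed more within a genotype than between genotypes, and its log2 fold change was -0.02 (SE 0.26, adjusted p = 0.959). Plk1, the Polo-like kinase gene, had 63.5 and 72.5 CPM in LT-HSC KO and 49.5 and 42.2 CPM in LT-HSC WT, a log2 change of 0.56 (SE 0.19) just outside the threshold (adjusted p = 0.0542). The 4 subunits of the chromosomal passenger complex, which corrects wrong attachments, had log2 fold changes of -0.17 (Aurkb), -0.15 (Cdca8), 0.03 (Incenp) and 0.14 (Birc5), and none passed.

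**Figure D2:**
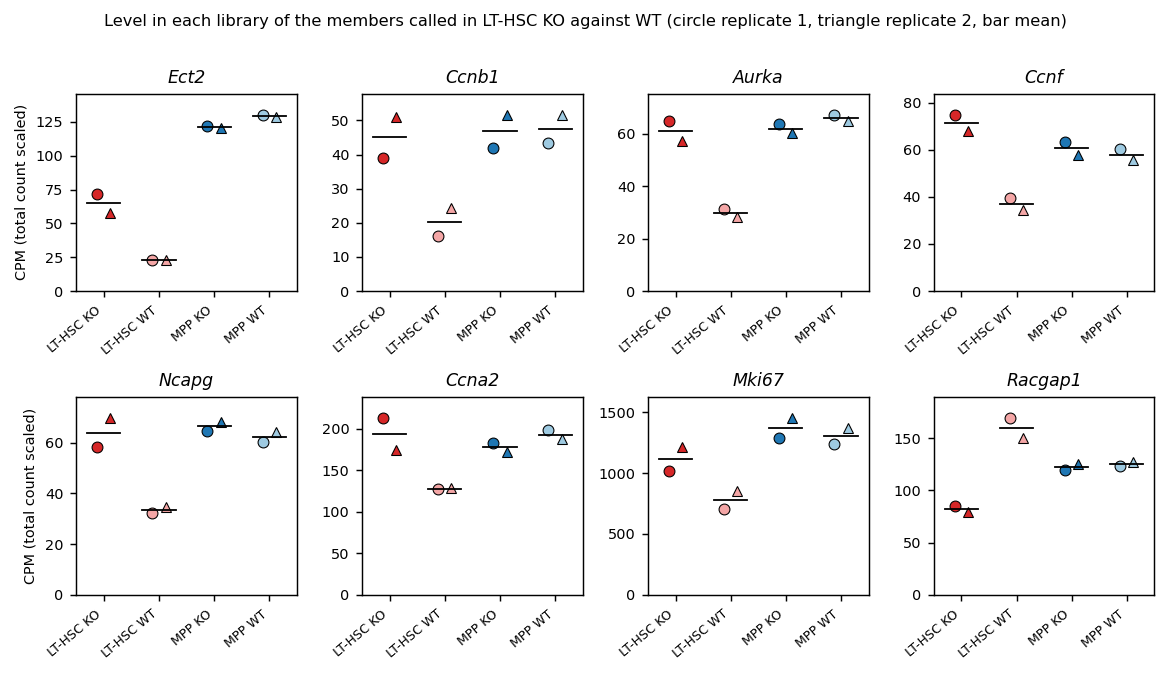
CPM in each library (circle, replicate 1; triangle, replicate 2; bar, group mean) of the 8 members that passed in LT-HSC KO against LT-HSC WT, with the MPP libraries beside them. In LT-HSC the KO and WT points do not overlap in any panel, and the 2 MPP genotypes lie close together: Ect2 averaged 121 CPM in MPP KO and 129 CPM in MPP WT, against 64.8 CPM in LT-HSC KO and 22.9 CPM in LT-HSC WT.

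Of the 7 genes of condensin and chromosome structure, 2 rose. Ncapg (ENSMUSG00000015880, mm9 chromosome 5, 46061161 to 46091783, plus strand) encodes a subunit found only in condensin I, the complex that loads on chromosomes after the nuclear envelope breaks down. It had 58.3 and 69.6 CPM in LT-HSC KO, against 32.3 and 34.8 CPM in LT-HSC WT, a log2 change of 0.93 (SE 0.19, adjusted p = 0.00574). It shares 3364 bases with Lcorl on the opposite strand. The other condensin I subunits did not move with it: Ncapd2 had a log2 change of -0.04 (SE 0.24) and Ncaph one of -0.10 (SE 0.19). The core subunit Smc2 had 264.9 and 257.3 CPM in LT-HSC KO and 193.3 and 189.7 CPM in LT-HSC WT, a log2 change of 0.44 (SE 0.15) that did not pass (adjusted p = 0.0569). Its partner Smc4 had 397.5 and 412.9 CPM in LT-HSC KO and 332.7 and 336.8 CPM in LT-HSC WT, a log2 change of 0.27 (SE 0.15, adjusted p = 0.209).

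Mki67 (ENSMUSG00000031004, mm9 chromosome 7, 142881471 to 142908062, minus strand), whose product coats mitotic chromosomes, had 1020 and 1215 CPM in LT-HSC KO, against 703 and 851.6 CPM in LT-HSC WT. The log2 fold change of 0.52 (SE 0.17) passed narrowly (adjusted p = 0.0466) and missed the threshold under 8 of 12 alternatives, with an adjusted p of up to 0.369. Top2a, the topoisomerase that untangles sister chromatids, had 625 and 550.6 CPM in LT-HSC KO and 844.7 and 667.3 CPM in LT-HSC WT. Its groups did not overlap either, in the other direction, and its log2 fold change of -0.37 (SE 0.20, adjusted p = 0.198) did not pass. Ncapd2 had 431.8 and 339.1 CPM in LT-HSC KO and 463.2 and 324.1 CPM in LT-HSC WT, and Kif11, the motor that pushes spindle poles apart, 224.2 and 205.3 CPM in LT-HSC KO and 251.8 and 234.5 CPM in LT-HSC WT.

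The remaining groups held no gene that passed. Of 8 centromere and kinetochore genes, 7 had a log2 fold change above 0 and the group median was 0.32. The largest were 0.45 for Ndc80 (SE 0.32) and 0.44 for Nuf2 (SE 0.18, adjusted p = 0.0983), both of the complex that grips microtubules, while its subunit gene Spc24 had -0.58 (SE 0.26, adjusted p = 0.124). The 6 checkpoint and anaphase genes ran from -0.36 for Bub1b, the BubR1 checkpoint kinase gene, to 0.39 for Ube2c, the ubiquitin-conjugating enzyme of the anaphase-promoting complex, with a median of -0.11. The 10 kinesin and spindle genes ran from -0.56 for Prc1 to 0.51 for Hmmr, with 5 above 0. Hmmr, which encodes a spindle assembly factor, had 105.7 and 115.2 CPM in LT-HSC KO and 82.3 and 71.9 CPM in LT-HSC WT and an adjusted p of 0.0513. Of the transcription regulators, Foxm1 had 62.5 and 84.2 CPM in LT-HSC KO and 100.2 and 101.1 CPM in LT-HSC WT, a log2 change of -0.46 (SE 0.18, adjusted p = 0.0832). Mybl2 had 0.67 (SE 0.29, adjusted p = 0.114), with 121.7 and 77.7 CPM in LT-HSC KO and 75.0 and 49.4 CPM in LT-HSC WT.

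Counted on CPM alone, both LT-HSC KO libraries lay above both LT-HSC WT libraries for 18 members, or 36%, beside 36.4% of all genes tested, and below for 12 members, or 24%, beside 29.4%. Several calls ended when 1 library was left out, with the direction kept. Without LT-HSC KO replicate 2, Ccnb1 (adjusted p = 0.0716) and Ncapg (adjusted p = 0.0774) missed the threshold, and without LT-HSC KO replicate 1, Aurka (adjusted p = 0.0855) and Ccnf (adjusted p = 0.0992) did. Under each of 12 alternatives the log2 fold change stayed at 0.92 or more for Ccnb1, 0.83 or more for Ncapg, 0.86 or more for Aurka and 0.75 or more for Ccnf. Ccna2 missed the threshold with DESeq2, with no filter on low counts, without either LT-HSC KO replicate and without LT-HSC WT replicate 2. Its log2 fold change stayed at 0.41 or more. In LT-HSC, DESeq2 called 5 members higher and 1 lower, beside 3472 and 1361 of 18413 genes. With no filter, edgeR also called 5 higher and 1 lower, beside 3967 and 1444 of 19546 genes. Without LT-HSC WT replicate 2 the member median of the log2 fold change turned to -0.08, beside 0.09 over all genes. Without LT-HSC KO replicate 1 it was -0.00, beside 0.01 over all genes.

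Reads spread thinly along the genome can add to a count. The density over receptor genes of smell and taste, assumed to be silent in blood cells, was taken as a measure. Only receptor genes listed by the authors were used, 148 for LT-HSC and 54 for MPP. How genes came to be listed is not stated. If listing required counts, the density is too high and its difference between genotypes may reflect that choice. The density was 0.6214 to 0.8516 counts per kb in LT-HSC KO and 0.2625 to 0.3535 in LT-HSC WT. By this estimate the background was a median of 3.125% of a member's count in LT-HSC KO and 1.233% in LT-HSC WT, and at most 21.34%, for the long gene Kif4. For Ect2 the estimate was 12.56% and 12.02% in LT-HSC KO and 15.9% and 13.16% in LT-HSC WT. With that density subtracted from every gene by its span, the 7 rises stayed past the threshold, while Racgap1 did not. Over all genes 520 of 12333 then rose, or 4.22%, and 418 fell, or 3.39%, and the median log2 fold change was 0.33 over members beside 0.00 over all genes. A density that leaves out the most counted receptor genes, chosen after seeing the data, gave 10 members higher and 1 lower, beside 5.59% and 6.41% of 12927 genes. That density was 0.6839 and 0.5137 counts per kb in LT-HSC KO and 0.07422 and 0.08219 in LT-HSC WT. The estimate of the background, above all in LT-HSC WT, therefore depended on the most counted receptor genes. The 7 rises held under both subtractions, while the shares of all genes called were far below those on the counts as deposited.

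In MPP, no mitosis gene passed in either direction. Over all 14902 genes tested, 707 rose, or 4.74%, and 366 fell, or 2.46%. DESeq2 also called 0 members, and 3 members had an unadjusted p under 0.05 in edgeR: Cenph, Kif11 and Cenpe. Over all genes tested, 2140 lay above 0 and 1791 below at that unadjusted p. All 50 log2 fold changes were between -0.45 and 0.17, with a median of -0.02 beside -0.01 over all genes. Their SE had a median of 0.08, against 0.19 in LT-HSC, so differences of the size seen for Ect2 or Aurka in LT-HSC would have stood far outside the error. A count of 0 is no measure of sameness, since leaving out either MPP WT library gave 0 calls over all genes.

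The members that moved in LT-HSC did not pass in MPP. Ect2 had 121.9 and 120.3 CPM in MPP KO and 130.3 and 128.5 CPM in MPP WT, a log2 change of -0.02 (SE 0.06, adjusted p = 0.891). Ccnb1 had 42.1 and 51.7 CPM in MPP KO and 43.5 and 51.5 CPM in MPP WT, and Aurka 63.7 and 60.2 CPM in MPP KO and 67.2 and 64.8 CPM in MPP WT. Racgap1 had 119.9 and 125.7 CPM in MPP KO and 123.5 and 126.8 CPM in MPP WT, a log2 change of 0.05 (SE 0.07, adjusted p = 0.715). The genotypes overlapped for Ccnb1 and Racgap1 and lay close together for Ect2 and Aurka, with KO the lower. Mki67 had 1290 and 1448 CPM in MPP KO and 1242 and 1367 CPM in MPP WT, and Top2a 900.9 and 854.1 CPM in MPP KO and 996.9 and 974.6 CPM in MPP WT, and neither passed.

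The lowest adjusted p in MPP belonged to Cenph, a gene of the inner kinetochore. It had 26.0 and 23.8 CPM in MPP KO and 38.1 and 33.7 CPM in MPP WT, a log2 change of -0.45 (SE 0.11) that missed the threshold (adjusted p = 0.0702). Kif11 had 263.2 and 262 CPM in MPP KO and 313.7 and 322.4 CPM in MPP WT, a log2 change of -0.20 (SE 0.06, adjusted p = 0.13). Cenpe, the kinetochore motor gene, had 0.17 (SE 0.06, adjusted p = 0.171). On CPM alone both MPP KO libraries lay below both MPP WT libraries for 24 members, or 48%, beside 37.8% of all genes tested, and above for 3 members, Cenpe, Ncapg and Spc25, or 6%, beside 20.9%. That scaling by totals moved the median of all genes to -0.08. B lineage markers summed to 23390 to 25340 CPM in MPP KO and 11610 to 12350 CPM in MPP WT, and granulocyte and monocyte markers to 2102 to 2118 CPM in MPP KO and 1270 to 1295 CPM in MPP WT, and their part in these levels was not tested.

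Whether the KO effect differed between the populations was tested directly, as the log2 fold change in LT-HSC minus that in MPP over all 8 libraries. It differed for 10 members, 8 with a higher value in LT-HSC and 2 with a lower one, beside 13.6% and 8.5% of 16551 genes. The difference was 1.51 for Ect2 (SE 0.18, adjusted p = 0.00244), 1.09 for Ccnb1 (SE 0.30, adjusted p = 0.0331), 1.04 for Aurka (SE 0.18, adjusted p = 0.00746) and -1.02 for Racgap1 (SE 0.16, adjusted p = 0.00542). Cenph, which passed in neither population alone, had a difference of 0.83 (SE 0.19, adjusted p = 0.0189). It had 37.0 and 35.6 CPM in LT-HSC KO and 27.6 and 27.7 CPM in LT-HSC WT, the opposite order to MPP. Smc2, with a difference of 0.50 (SE 0.13, adjusted p = 0.03), and Kif23, with -0.49 (SE 0.15, adjusted p = 0.0459), likewise passed in neither population alone. For Mki67 the difference of 0.37 (SE 0.19, adjusted p = 0.189) did not pass, so its rise in LT-HSC was not shown to differ from MPP. Of the 10 calls, those of Ect2, Aurka and Racgap1 held under all 15 alternatives.

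The comparison of WT LT-HSC with WT MPP gives the difference between the populations in the libraries labelled WT, all from transplanted mice. In WT LT-HSC 17 of the 50 members, or 34%, were lower than in WT MPP and 0 were higher, where 16.9% of 14660 genes were lower and 17.4% higher. DESeq2 gave the same counts of members. At an unadjusted p under 0.05 in edgeR, 2 members, Prc1 and Racgap1, were higher and 19 were lower. Over all genes tested, 3447 were higher and 3342 lower at that unadjusted p. The median log2 fold change, LT-HSC over MPP, was -0.33 over members and 0.02 over all genes, with 42 members below 0. The calls lay among cyclins (5 of 7 genes), condensin and chromosome structure (4 of 7), kinetochore genes (3 of 8), kinases (2 of 7), kinesin and spindle genes (2 of 10) and cytokinesis genes (1 of 3), and none lay among the 6 checkpoint and anaphase genes. Population, cell number and depth cannot be told apart here, since each LT-HSC library came from fewer cells and holds fewer counts. B lineage and plasma cell markers summed to 149.5 to 211.5 CPM in LT-HSC WT and 11610 to 12350 CPM in MPP WT. Granulocyte and monocyte markers summed to 186.1 to 269.9 CPM in LT-HSC WT and 1270 to 1295 CPM in MPP WT. The part of these transcripts in the WT comparison was not tested. On CPM, both WT LT-HSC libraries lay below both WT MPP libraries for 32 members, or 64%, beside 36% of all genes tested. They lay above for Prc1 and Racgap1, or 4%, beside 34.4% of all genes.

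**Figure D3:**
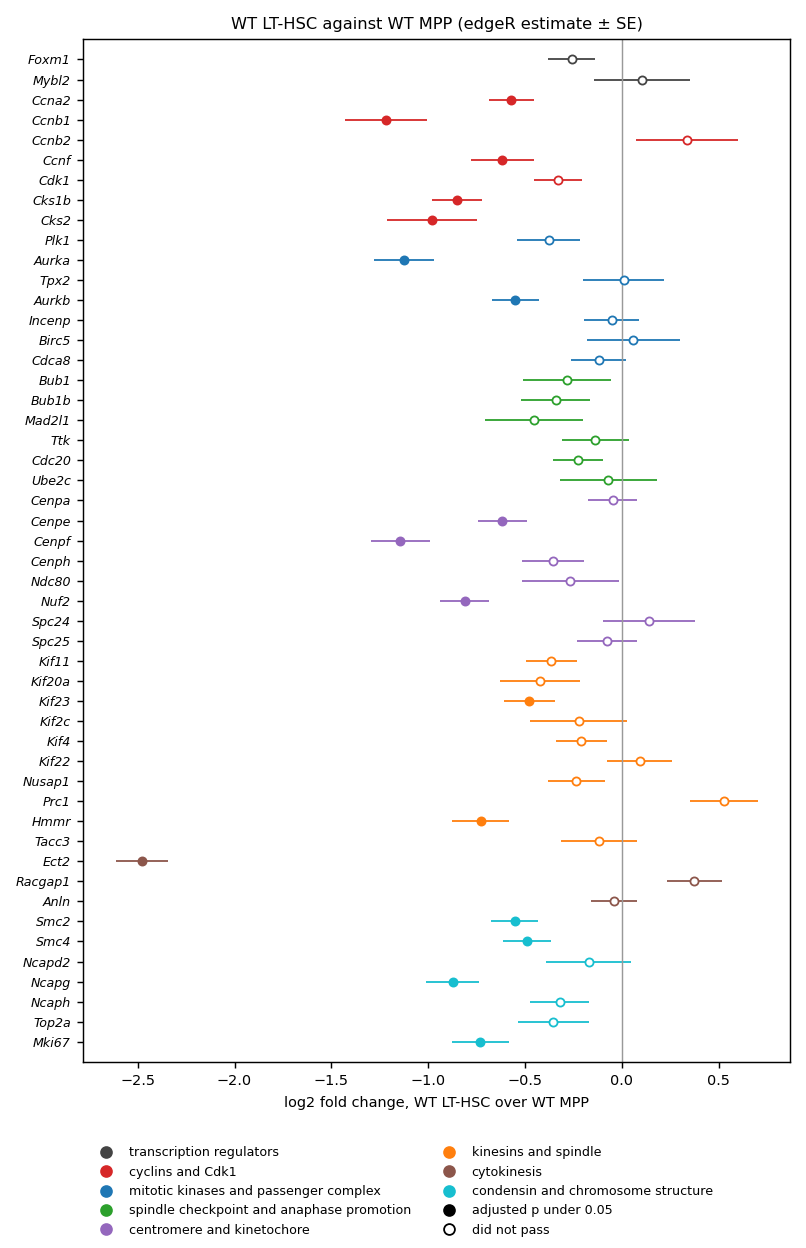
Log2 fold change, WT LT-HSC over WT MPP, of each of the 50 mitosis genes, with 1 SE from edgeR as the bar and colours by role. The 17 filled points passed an adjusted p of 0.05 and all lie below 0, from -0.48 (Kif23) to -2.48 (Ect2), which stands apart from the rest, while Prc1 (0.53) and Racgap1 (0.37) lie on the other side without passing.

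Ect2 was again the extreme, with 23.0 and 22.7 CPM in WT LT-HSC and 130.3 and 128.5 CPM in WT MPP, a log2 change of -2.48 (SE 0.14, adjusted p = 0.000171). Racgap1, whose product recruits it, had 168.8 and 149.9 CPM in WT LT-HSC and 123.5 and 126.8 CPM in WT MPP, a log2 change of 0.37 (SE 0.14) that did not pass (adjusted p = 0.0884). Kif23 was lower, with 106 and 99.9 CPM in WT LT-HSC and 147.7 and 143.6 CPM in WT MPP (log2 fold change -0.48, SE 0.13, adjusted p = 0.034). The 2 centralspindlin genes thus had opposite signs.

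Among the cyclins, Ccnb1 had 16.2 and 24.3 CPM in WT LT-HSC and 43.5 and 51.5 CPM in WT MPP (log2 fold change -1.22, SE 0.21, adjusted p = 0.00841). Ccna2 was lower by less, at -0.57 (SE 0.12, adjusted p = 0.0147), as was Ccnf at -0.62 (SE 0.16, adjusted p = 0.031). Both small Cdk subunit genes were lower. Cks1b had 37.6 and 42.4 CPM in WT LT-HSC and 74.4 and 71.9 CPM in WT MPP (log2 fold change -0.85, SE 0.13, adjusted p = 0.00547), and Cks2 15.7 and 25.7 CPM in WT LT-HSC and 38.2 and 43.9 CPM in WT MPP (-0.98, SE 0.23, adjusted p = 0.0222). Cdk1, at -0.33 (SE 0.12, adjusted p = 0.0876), and Ccnb2, at 0.34 (SE 0.26, adjusted p = 0.355), did not pass. Cyclin B1 and cyclin B2 transcripts therefore had fold changes of opposite sign.

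Both Aurora genes were lower in WT LT-HSC. Aurka had 31.4 and 28.1 CPM in WT LT-HSC and 67.2 and 64.8 CPM in WT MPP (log2 fold change -1.12, SE 0.15, adjusted p = 0.00392). Aurkb, the kinase of the passenger complex, had 82.3 and 83.6 CPM in WT LT-HSC and 127 and 119.6 CPM in WT MPP (-0.55, SE 0.12, adjusted p = 0.0179). The other passenger genes and Tpx2 stayed between -0.12 and 0.06 and did not pass. Of the kinetochore genes, Cenpf, a large outer kinetochore protein gene, had 84.7 and 112.9 CPM in WT LT-HSC and 208.1 and 232.5 CPM in WT MPP (-1.14, SE 0.15, adjusted p = 0.00357). Nuf2 had 45.4 and 48.0 CPM in WT LT-HSC and 83.0 and 83.4 CPM in WT MPP (-0.81, SE 0.13, adjusted p = 0.00583), and Cenpe 112.2 and 105.7 CPM in WT LT-HSC and 169.8 and 169.9 CPM in WT MPP (-0.62, SE 0.13, adjusted p = 0.015). The partners of Nuf2 in the Ndc80 complex did not pass at -0.27 for Ndc80, 0.14 for Spc24 and -0.08 for Spc25.

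Condensin genes were lower at the core and in 1 accessory subunit. Smc2 had 193.3 and 189.7 CPM in WT LT-HSC and 280.8 and 289.8 CPM in WT MPP (log2 fold change -0.55, SE 0.12, adjusted p = 0.0181), and Smc4 332.7 and 336.8 CPM in WT LT-HSC and 468.9 and 486.3 CPM in WT MPP (-0.49, SE 0.12, adjusted p = 0.027). Ncapg had 32.3 and 34.8 CPM in WT LT-HSC and 60.3 and 64.3 CPM in WT MPP (-0.87, SE 0.14, adjusted p = 0.00622), while Ncapd2, at -0.17 (SE 0.22), and Ncaph, at -0.32 (SE 0.15), did not pass. Mki67 had 703 and 851.6 CPM in WT LT-HSC and 1242 and 1367 CPM in WT MPP (-0.73, SE 0.15, adjusted p = 0.0136). Top2a, with 844.7 and 667.3 CPM in WT LT-HSC and 996.9 and 974.6 CPM in WT MPP, did not pass (-0.35, SE 0.18, adjusted p = 0.182). Hmmr was lower, with 82.3 and 71.9 CPM in WT LT-HSC and 131.6 and 128.7 CPM in WT MPP (-0.73, SE 0.15, adjusted p = 0.0134), and Kif11 missed the threshold (-0.36, SE 0.13, adjusted p = 0.0786). The count of lower members depended on which library was left out. The member median was -0.54 without LT-HSC WT replicate 1 and -0.19 without LT-HSC WT replicate 2, beside -0.02 and -0.04 over all genes. It was -0.28 without MPP WT replicate 1 and -0.35 without MPP WT replicate 2, beside 0.02 and 0.03 over all genes. The calls of Ect2, Ccnb1, Aurka, Nuf2, Cenpf and Cks1b held under all 12 alternatives.

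The KO comparison in LT-HSC and the WT comparison of populations share the LT-HSC WT libraries and are not independent, and their values are given side by side without a test of their relation. For Ect2 the log2 fold changes were 1.50 for LT-HSC KO over WT and -2.48 for WT LT-HSC over WT MPP, and for Ccnb1 they were 1.15 and -1.22. For Aurka they were 1.03 and -1.12, for Ncapg 0.93 and -0.87, for Ccnf 0.94 and -0.62, for Ccna2 0.59 and -0.57 and for Mki67 0.52 and -0.73. For Racgap1 they were -0.96 and 0.37. Cenpf, Cks1b and Aurkb had low levels in LT-HSC of both genotypes. Cenpf had 90.7 and 119 CPM in LT-HSC KO beside 84.7 and 112.9 CPM in LT-HSC WT (log2 fold change 0.09, SE 0.19), and Cks1b 39.6 and 38.3 CPM in LT-HSC KO beside 37.6 and 42.4 CPM in LT-HSC WT (-0.04, SE 0.19). Summed over the 50 members, the level was 6583 to 7001 CPM in LT-HSC KO, 6001 to 6711 CPM in LT-HSC WT, 7837 to 8000 CPM in MPP KO and 8324 to 8469 CPM in MPP WT. The summed levels of LT-HSC KO and LT-HSC WT overlapped, and both lay below both MPP groups.

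Further genes of mitosis outside the 50 were counted the same way. Of 90 such genes found, 7 rose and 11 fell in LT-HSC KO, where 22.5% of all genes rose and 10.9% fell. Their median was 0.03 on the log2 scale. In MPP 0 of the 90 passed. At an unadjusted p under 0.05 in edgeR, 1 lay above 0 in MPP and 11 below, beside 2140 and 1791 of all 14902 genes. In WT LT-HSC 5 were higher and 28 lower than in WT MPP, where 17.4% of all genes were higher and 16.9% lower. The largest change in LT-HSC was that of Fam64a, with 7.28 and 5.73 CPM in LT-HSC KO and 44.4 and 38.2 CPM in LT-HSC WT, a log2 change of -2.66 (SE 0.28, adjusted p = 0.00044). Pbk, a mitotic kinase gene, had -1.17 (SE 0.28, adjusted p = 0.012), Cep55, which acts in the final cut between daughter cells, -1.09 (SE 0.22, adjusted p = 0.00664) and Mastl, the Greatwall kinase gene, -1.04 (SE 0.29, adjusted p = 0.0261). Cep55 had 17.9 and 24.9 CPM in LT-HSC KO and 43.6 and 47.0 CPM in LT-HSC WT. In the WT comparison the largest were Trip13, a gene of checkpoint silencing, at -1.56 (SE 0.18, adjusted p = 0.00217), the cohesin protector gene Sgol2 at -1.23 (SE 0.34, adjusted p = 0.0367), the phosphatase gene Cdc25c, which activates Cdk1, at -1.22 (SE 0.18, adjusted p = 0.00508) and the kinetochore gene Mis12 at -1.01 (SE 0.25, adjusted p = 0.0255).

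Genes on either side of mitosis in the cycle are given as counts. Of 43 DNA replication genes, 6 rose and 0 fell in LT-HSC KO, beside 22.5% and 10.9% of all genes tested. At an unadjusted p under 0.05 in edgeR, 8 lay above 0 there and 2 below, beside 4150 and 2642 of all 15684 genes. In MPP 0 rose and 1 fell, beside 4.74% and 2.46% of all genes, with 34 below 0 and a median of -0.16. Of these 43, 1 was higher and 8 were lower in WT LT-HSC than in WT MPP, beside 17.4% and 16.9% of all genes. Of 16 genes of cell cycle inhibitors and of the DREAM and MuvB complexes, 4 rose in LT-HSC KO (Lin52, Rb1, Cdkn2c and E2f4) and 4 fell (Cdkn1a, Cdkn2d, Btg2 and Btg1), named after their values were seen. Over all genes tested, 22.5% rose and 10.9% fell there. Cdkn1a, which encodes the Cdk inhibitor p21, had a log2 change of -1.93 in LT-HSC (SE 0.18, adjusted p = 0.000267) and -0.59 in MPP (SE 0.07, adjusted p = 0.0157).

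Levels of different members can be compared only per length, for which CPM was divided by the summed exon length of the gene. That length pools the exons of all transcripts on GRCm38, while the counts were made on mm9. For Mad2l1 it was 8.39 kb, longer than the 5.644 kb span of the gene as counted. The order is therefore approximate, and the SD does not cover this error. In WT MPP the order was led by Mki67 at 129.7 ± 8.73 CPM per kb, Top2a at 109 ± 1.75, Smc4 at 91.7 ± 2.36 and Ccnb2 at 79.4 ± 12.9 (SD, n = 2), and the last of these overlapped Ncapd2 at 72.4 ± 5.52 CPM per kb. At the low end were Ncapg at 8.81 ± 0.398, Ndc80 at 8.10 ± 0.994 and Ccnf at 7.41 ± 0.423 CPM per kb. Ndc80 lay within its spread of both neighbours, and the ranges of Ncapg and Ccnf did not overlap. In LT-HSC KO the order was Mki67 at 111.1 ± 13.8, Ccnb2 at 82.4 ± 25.7 and Smc4 at 77.8 ± 2.09 CPM per kb, and in LT-HSC WT Ccnb2 at 97.7 ± 30.7, Top2a at 83.9 ± 13.9 and Mki67 at 77.3 ± 10.5 CPM per kb. The 3 leading genes of LT-HSC WT did not differ beyond their spread. The lowest levels of LT-HSC WT were Ect2 at 4.24 ± 0.0377, Ccnf at 4.74 ± 0.475, Ncapg at 4.75 ± 0.247 and Ccnb1 at 4.81 ± 1.35 CPM per kb. Ccnf, Ncapg and Ccnb1 lay within their spread of each other. All 4 were also among the genes that rose in LT-HSC KO, where Ect2 stood at 12.03 ± 1.81, Ccnf at 9.16 ± 0.623, Ncapg at 9.04 ± 1.13 and Ccnb1 at 10.7 ± 2.01 CPM per kb. The WT level is also the base of the fold change, so a low WT level and a rise are not independent. Next in order in LT-HSC WT were Cenpf at 6.40, Ndc80 at 6.58 and Nuf2 at 7.37 CPM per kb, and none of these passed in LT-HSC KO.

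The libraries within a group differed for mitosis genes in a repeated way. For 24 of the 50 members, or 48%, replicate 1 had the higher CPM in all 4 groups, beside 18.6% of 16551 genes, and for 7 members, or 14%, replicate 2 had it in all 4, beside 24.1%. Ube2c had 161.1 CPM in replicate 1 and 103.4 CPM in replicate 2 of LT-HSC KO, and 120.1 and 80.2 CPM in those of LT-HSC WT. Replicate 2 was higher in all 4 groups for Ccnb1, Cks2, Cenpf, Kif4, Smc4, Ncapg and Mki67. The median ratio of replicate 1 to replicate 2 over members was 0.10 on the log2 scale in LT-HSC KO, 0.16 in LT-HSC WT and 0.05 in each MPP group. Over all genes, with 1 added to each CPM, the median was -0.03 in LT-HSC KO and -0.10 in LT-HSC WT. In MPP KO it was -0.01 and in MPP WT 0.

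**Figure D4:**
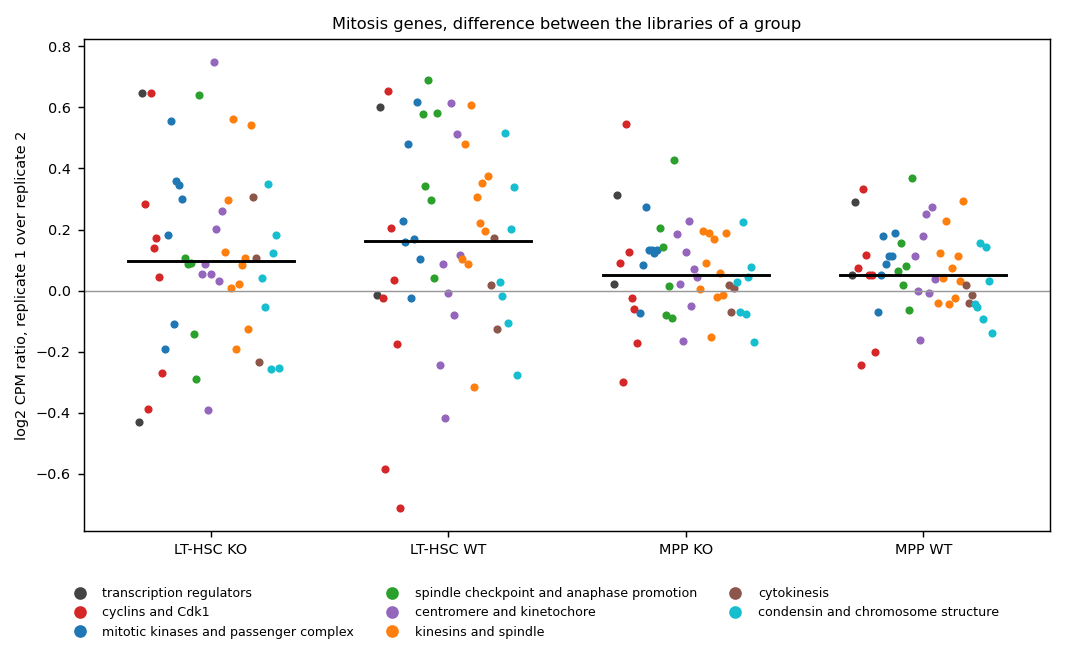
Log2 ratio of CPM, replicate 1 over replicate 2, of each of the 50 mitosis genes in the 4 groups, coloured by role, with the group median as a bar. The medians lie above 0 in all 4 groups, at 0.10 in LT-HSC KO, 0.16 in LT-HSC WT and 0.05 in MPP KO and MPP WT, and the points spread more widely in LT-HSC than in MPP.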

How the data were processed

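RNA had been sequenced as paired 50 bp reads in 8 libraries. The authors' processing used CASAVA and TopHat with the mm9 build, per the submitters' processing notes, with no version, read counter or annotation given. For each population the authors deposited a table of raw counts per Ensembl gene. These tables also hold, per the file headers, the authors' log2 fold changes and, for each gene, a likelihood ratio score, p-value and FDR. In the authors' deposited table, 5 members were higher and 1 lower at an FDR under 0.05 in LT-HSC, and 0 in MPP. Over all 19685 genes listed for LT-HSC, 5418 were higher and 1668 lower by the same FDR. Over all 18904 listed for MPP, 1006 were higher and 487 lower.

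The genotype and replicate in a column's name gave its sample. Counts were analysed with edgeR 4.0.16 in R 4.3.3 (filterByExpr, TMM normalization, quasi-likelihood test) over all genes, separately for LT-HSC (15684 genes), MPP (14902), the WT libraries (14660) and the interaction of population and genotype (16551). All 50 members passed the filter in each. The biological coefficient of variation was 0.185 in LT-HSC and 0.107 in MPP. SE is the log2 fold change over the root of its F statistic. With 3 counts as the floor, a gene at 0 could lie as high as 0.5475 to 0.6028 CPM in LT-HSC and 0.2399 to 0.2515 CPM in MPP, counting error only. Coordinates of genes are those of the tables (mm9), and promoters and exon lengths are on GRCm38, matched by symbol or gene ID. Whether the authors counted exons only is not stated. DESeq2 1.42.0 was an alternative tool. The procedure was checked on simulated counts, where some genes left unchanged were called in every comparison.

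The members and lists were chosen with earlier results of these data known. Full values are given for members called in any comparison and for the 5 with the highest mean CPM, and at most 4 other mitosis genes are named per comparison, by size of fold change. Some results are not reported here.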

Additional observations from a re-analysis of the deposited data

Results flagged for a closer look

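For 10 members the effect of Tet1 KO differed between LT-HSC and MPP, by the interaction test of edgeR over 16551 genes with Benjamini-Hochberg adjustment. The difference is the log2 fold change KO over WT in LT-HSC minus that in MPP. It was 1.51 for Ect2, 1.09 for Ccnb1, 1.04 for Aurka, 0.83 for Cenph, 0.79 for Ccnf, 0.75 for Ncapg, 0.63 for Ccna2 and 0.50 for Smc2, and it was -1.02 for Racgap1 and -0.49 for Kif23. Kif23 had the highest adjusted p of the 10, at 0.0459, and Ect2 the lowest, at 0.00244. The call of Kif23 ended under 11 of 15 alternatives, those of Ccna2 and Smc2 under 7, that of Ccnb1 under 6 and those of Ccnf, Ncapg and Cenph under 5. Each of these 7 calls ended when any 1 of the 4 MPP libraries was left out.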

How the results depend on the processing

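No call of a member changed sign under any alternative. Members higher in LT-HSC KO numbered 7, against 11 with all 8 libraries in one fit and 3 to 11 with 1 library left out. Members lower there numbered 1, against 2 with RLE size factors, 2 with total counts only, 0 with background subtracted, 6 with all 8 libraries and 0 to 10 with 1 library left out. In MPP, 0 were higher and 0 lower, and these counts were 0 to 0 with 1 library left out and 1 lower with total counts only. In WT LT-HSC against WT MPP, 0 were higher and 17 lower, against 1 higher with total counts only, 1 higher with all 8 libraries, and 0 to 3 higher and 6 to 30 lower with 1 library left out. For the interaction, 10 were called, and 3 to 13 with 1 library left out. Over all 16551 genes, the fit of all 8 libraries gave 4139 higher and 3024 lower in LT-HSC KO against WT. It gave 3027 higher and 3499 lower in WT LT-HSC against WT MPP. Of the 8 members called in LT-HSC, 1 kept its call under every alternative, as did 6 of 17 in the WT comparison and 3 of 10 for the interaction. Over all genes, leaving out 1 library gave 1946 to 4213 higher and 379 to 2543 lower in LT-HSC, against 3529 and 1717, and 0 to 213 higher and 0 to 55 lower in MPP, against 707 and 366. Arms left with 1 library are assumed to vary like the other.

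The replicate numbers recur in every group, and the labels do not say what they mark. Deviations of same-numbered libraries correlated at 0.454 over all genes (0.709 over members) between LT-HSC KO and LT-HSC WT, at 0.671 (0.889) between MPP KO and MPP WT and at 0.473 (0.75) between WT LT-HSC and WT MPP. With 2 pairs per comparison this does not show that the numbers pair the samples. With the replicate number as a block, 18 members were higher and 11 lower in LT-HSC, 7 higher and 13 lower in MPP, 3 higher and 26 lower in WT LT-HSC against WT MPP, and 22 differed in the interaction. That block also raised the calls over all genes, to 4815 higher and 4009 lower in LT-HSC and 3536 higher and 3698 lower in MPP. With the block, 4038 of 14660 genes were higher and 3781 lower in WT LT-HSC against WT MPP. For the interaction 3632 of 16551 genes were higher and 3265 lower. The 2 libraries per group and the lower counts of LT-HSC limit what can be called there.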
